A study of Homo sapiens with 24 samples.

Results

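PMEPA1, INHBA, SMAD6, SMAD7, SKIL, TGFB1, TGFBR1 and TGFBR2 are genes of TGF-beta and activin signalling, and their transcript levels are given here on 24 arrays of SH-SY5Y cells, a human neuroblastoma line with neuronal features. The genes were chosen by symbol in the platform annotation, with it already known from these data that PMEPA1 was low and INHBA high in the V79 8x cells. They number 8 of 20061 named genes and are read by 28 of 62976 features. Cells were transfected with the plasmid pCAGIG in 4 groups of 6 arrays, which the design text calls biological replicates. V79 8x cells received the plasmid described as overexpressing the mutant FMR1 5' untranslated region with 79 CGG repeats, V79 cells the plasmid with the same 79-repeat region, V21 cells the wild-type region with 21 repeats, and Mock cells the empty plasmid. The labels state neither what the 8x mark refers to nor the share of cells that took up plasmid. The array names inside the sample descriptions give both 79-repeat groups another repeat number, and the V79 8x group another multiple than 8x. The titles and the written descriptions were followed. All groups were harvested 24 h after transfection, and arrays are named by the experiment letter, B to G, that the labels give. Counts of experiments compare arrays of the same letter, and the letters were taken to pair V79 8x with Mock alone. In the other comparisons these counts are not counts of paired arrays. The p-values below come from fits that leave the letters out, except where a replicate block is named, so they ignore this pairing.

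In this pathway a secreted ligand pair brings together type II and type I receptor kinases at the cell surface, and the type I kinase phosphorylates SMAD proteins that enter the nucleus with SMAD4. TGF-beta and activin act through SMAD2 and SMAD3, and bone morphogenetic proteins through SMAD1, SMAD5 and SMAD9. Signalling raises its own brakes, among them SMAD7, SMAD6, SKIL and PMEPA1. In cells of the sympathetic lineage, from which neuroblastoma arises, ligands of this family act on survival and differentiation.

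The values are the authors' deposited log2 intensities, and a difference of 1 on this scale is a doubling of the deposited intensity. All arrays had a median of 6.7 and the same distribution, so a shift shared by most genes would not be seen. The brightest feature stood for each gene, and genes with a mean below 6.43 were left out, which left 15046 genes, all 8 genes of interest among them. Of 12 markers of the noradrenergic neuronal state of the line, 10 were measured and all 10 passed that limit. DBH, which makes noradrenaline, was at 13.02 in V79 8x and 13.02 in Mock. TH and PHOX2A were dimmer, at 8.25 and 8.17 in V79 8x. Of 12 markers of the mesenchymal state of neuroblastoma cells, 11 passed too, with VIM at 17.69 in V79 8x. Passing the limit therefore does not set 1 state apart. Of the 10 noradrenergic markers, ISL1 fell in V79 8x against Mock, by 0.24 ± 0.06 (limma adjusted p = 0.0232). DDC rose against V21, by 0.36 ± 0.10 (limma adjusted p = 0.0382), while 0 of the 10 passed against V79. Of 4 glial markers measured, GFAP and SOX10 lay below the limit, at 6.18 and 6.29 in V79 8x, and S100B and ERBB3 above it, at 8.44 and 7.18, with 0 of these 2 past the limma threshold of an adjusted p of 0.05 in the 6 comparisons. V79 B, V21 B, V21 C and Mock D stood apart from their groups by replication-dependent histone genes, with a median shift of 0.34, 0.55, 0.90 and 0.38 over 65 genes, against -0.18 to 0.12 on the other 20 arrays. Results are therefore also given without these 4 arrays.

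PMEPA1 was lower in V79 8x cells than in every other group. PMEPA1 is a membrane protein induced by TGF-beta that binds receptor-activated SMADs and so dampens the pathway. Its level ran from 11.32 through a median of 11.43 to 11.62 in V79 8x. In V79 it ran from 11.82 through 11.89 to 11.96, in V21 from 11.79 through 11.95 to 11.97, and in Mock from 11.80 through 11.90 to 12.02. The highest V79 8x array thus lay under the lowest of the other 18 arrays, while V79, V21 and Mock overlapped throughout. The difference was -0.45 ± 0.06 (standard error) against V79, a 1.37-fold lower intensity, -0.47 ± 0.06 against Mock and -0.47 ± 0.06 against V21. It was negative in 6 of 6 experiments each time, which follows from the lack of overlap. The genes were chosen with these values known, so they are a description and carry no test. In a whole culture, fewer cells with a transcript and less transcript per cell cannot be told apart.

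The dimmer PMEPA1 feature was also lower in V79 8x on average, but its V79 8x arrays were not apart from all others. It lay between 9.58 and 9.94 in V79 8x, between 10.07 and 10.51 in V79, between 9.94 and 10.34 in V21 and between 9.95 and 10.25 in Mock. The highest V79 8x array met the lowest V21 array at 9.94, so the groups touched there and were apart from V79 and Mock. Its differences were -0.45 against V79, -0.28 against Mock and -0.40 against V21. Against Mock the size therefore depended on the feature, and the mean of both gave -0.37.

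**Figure D1:**
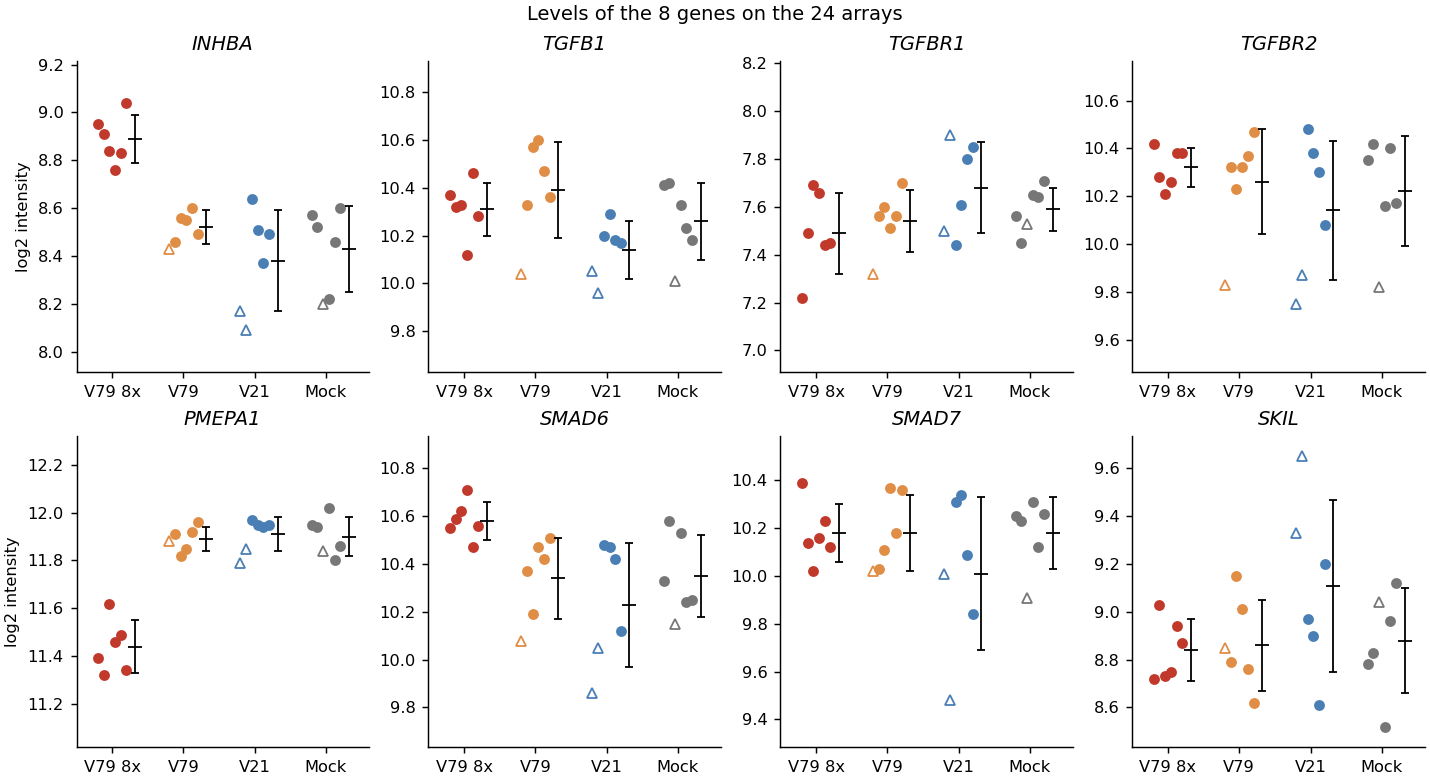
Level (log2 intensity, vertical axis) of each of the 8 genes on every array of the V79 8x, V79, V21 and Mock groups, with the mean and SD of 6 arrays as a bar beside the points and all panels spanning the same range of log2 units. Open triangles are V79 B, V21 B, V21 C and Mock D; the V79 8x points lie above all others for INHBA, from 8.76 to 9.04, and below all others for PMEPA1, from 11.32 to 11.62.

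INHBA, which encodes the beta-A subunit that forms activin A as a pair and inhibin A with the alpha subunit, was higher in V79 8x cells. It ran from 8.76 through a median of 8.88 to 9.04 in V79 8x, from 8.43 through 8.52 to 8.60 in V79, from 8.09 through 8.43 to 8.64 in V21 and from 8.20 through 8.49 to 8.60 in Mock. The lowest V79 8x array was above the highest of the remaining 18. The difference was +0.37 ± 0.09 against V79, +0.46 ± 0.09 against Mock and +0.51 ± 0.09 against V21, that is 1.30-fold, 1.38-fold and 1.42-fold. It was positive in 6 of 6 experiments in each comparison, which follows from the lack of overlap. Without the 4 arrays that stood apart the differences were +0.36, +0.41 and +0.39. As for PMEPA1, these values were known when the gene was chosen and have no test.

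The array carries 10 INHBA features, which were close to each other: in V79 8x their means lay between 8.54 and 8.89, and in V79 between 8.14 and 8.52. No source used here says whether they are copies of 1 probe, so they are not counted as separate evidence. In 10 of 10 features the 6 V79 8x arrays were above the other 18. The difference over the features ran from +0.36 to +0.46 against V79, from +0.45 to +0.53 against Mock and from +0.42 to +0.58 against V21.

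**Figure D2:**
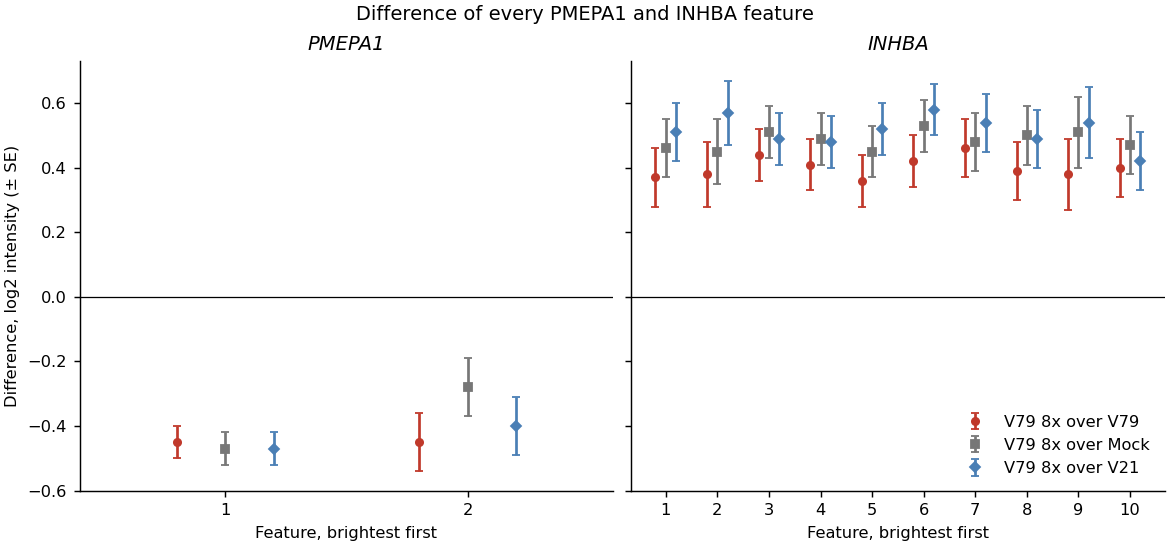
Difference in log2 intensity (vertical axis, bars are 1 standard error) of V79 8x over V79, Mock and V21 for the 2 PMEPA1 features and the 10 INHBA features, ordered from the brightest. The PMEPA1 differences lie between -0.47 and -0.28 and the INHBA differences between +0.36 and +0.58.

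Of the 8 genes, PMEPA1 and INHBA were the 2 whose V79 8x arrays did not overlap with the other group, in each of the 3 comparisons. Over all 15046 genes the groups did not overlap for 2.06% of genes against V79, 2.97% against Mock and 2.67% against V21, and nothing is read from this, as the choice of genes had used these comparisons. V79 8x cells also differed from the rest in interferon-stimulated genes. All 11 genes of that list with a named feature rose in V79 8x against V79, Mock and V21 (limma, adjusted p under the threshold of 0.05), and their summed level was 128.01 to 134.88 in V79 8x, 88.86 to 94.49 in V79, 85.33 to 90.34 in V21 and 88.16 to 93.92 in Mock. Their part in the PMEPA1 and INHBA differences was not tested. Mesenchymal markers had a summed level of 118.05 to 120.43 in V79 8x and 118.94 to 120.45 in V79. It was 119.27 to 120.95 in V21 and 118.76 to 119.74 in Mock. By limma, 0 of 11 tested genes of that list passed the threshold in these comparisons.

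TGFB1, the other ligand among the 8 genes, had a level of 10.31 ± 0.11 in V79 8x, 10.39 ± 0.20 in V79, 10.14 ± 0.12 in V21 and 10.26 ± 0.16 in Mock (SD, n = 6). Its V79 8x arrays, from 10.12 to 10.46, lay within the range of V79, from 10.04 to 10.60. The difference of V79 8x was -0.08 ± 0.09 against V79, +0.05 ± 0.09 against Mock and +0.17 ± 0.09 against V21. The array has 10 TGFB1 features, and over them the difference from V79 ran from -0.08 to 0.00.

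By the brightest feature of each receptor, the V79 8x arrays overlapped with every other group. TGFBR2, the type II receptor that binds TGF-beta first, had a median of 10.33 in V79 8x, 10.32 in V79, 10.19 in V21 and 10.26 in Mock. Its difference in V79 8x was +0.07 ± 0.12 against V79, +0.10 ± 0.12 against Mock and +0.18 ± 0.12 against V21. Against V79 the values were lower in 4 of 6 experiments. Without the 4 arrays the differences were -0.02, +0.02 and +0.01. A further TGFBR2 feature was dim, with group means of 6.41, 6.45, 6.59 and 6.56 in V79 8x, V79, V21 and Mock. It went the other way, at -0.04 ± 0.08 against V79, -0.15 ± 0.08 against Mock and -0.19 ± 0.08 against V21. TGFBR1, the type I kinase it recruits, had a median of 7.47 in V79 8x, 7.56 in V79, 7.71 in V21 and 7.60 in Mock. The V79 8x arrays spanned 7.22 to 7.69 and overlapped with every group, and their difference was -0.05 ± 0.09 against V79, -0.10 ± 0.09 against Mock and -0.19 ± 0.09 against V21.

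Among the inhibitors other than PMEPA1, SMAD6 leaned up in V79 8x cells, while SMAD7 and SKIL did not differ in level from V79 and Mock by more than a standard error. SMAD6 restrains mainly bone morphogenetic protein signalling. It ran from 10.47 through a median of 10.57 to 10.71 in V79 8x, from 10.08 through 10.39 to 10.51 in V79, from 9.86 through 10.27 to 10.48 in V21 and from 10.15 through 10.29 to 10.58 in Mock. The V79 8x arrays overlapped with each other group at their lower end. They were higher than the array of the same letter in 6 of 6 experiments in each comparison, by as little as 0.01 against Mock. Against V79 and V21 the letters were not taken as pairs, so there this count rests on no pairing. The difference was +0.24 ± 0.10 against V79, +0.24 ± 0.10 against Mock and +0.35 ± 0.10 against V21, and without the 4 arrays +0.19, +0.20 and +0.21, so against V21 it was over 1.5 times as large with them.

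SMAD7, which blocks the type I receptor and draws ubiquitin ligases to it, had a median of 10.15 in V79 8x, 10.14 in V79, 10.05 in V21 and 10.24 in Mock. V21 had the widest spread, from 9.48 on V21 C to 10.34. SKIL, a co-repressor of SMAD target genes also called SnoN, had a median of 8.81 in V79 8x, 8.82 in V79, 9.09 in V21 and 8.89 in Mock. Its V21 arrays ran from 8.61 to 9.65, with the 2 highest values on V21 C and V21 B. The SKIL difference of V79 8x against V21 was -0.27 ± 0.13 and became -0.08 without the 4 arrays, and the SMAD7 difference of +0.17 ± 0.11 became +0.03.

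The promoters of the 8 genes were searched for 3 motifs, that of the SMADs, that of cAMP-responsive factors and that of the interferon response, and the stretches that hold one are shown. RefSeq windows from 250 bases before to 50 bases after a gene's start (GRCh38.p14) were available for all 8 genes, 21 windows in all, since a gene can have several starts. The SMAD palindrome GTCTAGAC was present in 1 of them, at SMAD6, and in 0.202% of all 35116 windows. The cAMP response element TGACGTCA was present in 2, at SKIL and at 1 of the PMEPA1 starts, and in 1.85% of all windows. The core of the interferon-stimulated response element was in none of the 21 and in 3.57% of all windows. Both strands were read. The matches follow with the motif in capitals, and they are descriptions of sequence and not measured sites.
PMEPA1, chr20:57710001-57710030, minus strand: ccgtctagcgcTGACGTCAgaccgtctgcc
SMAD6, chr15:66702213-66702242, plus strand: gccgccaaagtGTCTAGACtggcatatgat
SKIL, chr3:170357650-170357679, plus strand: cgaggactcggTGACGTCAgagggctgtgt

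The comparisons without V79 8x cells were not used to choose the genes and were tested in a limma fit over all 15046 genes. They set the 79-repeat and the 21-repeat regions against each other and against the empty plasmid. In V79 against V21, 0 of 8 genes passed the adjusted threshold, where 0.00665% of all genes did, and the groups overlapped for all 8, where 0.0598% of all genes did not overlap. By unadjusted p, 1 of 8 was under 0.05, where 3.81% of all genes were. That gene was TGFB1, with a difference of +0.25 ± 0.09 (limma unadjusted p = 0.00871, adjusted p = 0.832), higher in 5 of 6 experiments. It ran from 10.04 through a median of 10.41 to 10.60 in V79 and from 9.96 through 10.18 to 10.29 in V21, so the groups overlapped. Over its 10 features the difference ran from +0.08 to +0.25, and without the 4 arrays it was +0.26 (limma adjusted p = 0.998). SKIL gave -0.25 ± 0.13 (limma adjusted p = 0.832), which became -0.05 without the 4 arrays. PMEPA1 gave -0.02 ± 0.06 and INHBA +0.14 ± 0.09, or +0.03 without the 4 arrays.

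Against the empty plasmid the 8 genes lay still closer. In V79 against Mock, 0 of 8 passed by limma with adjustment, where 0.00665% of all genes did, 0 of 8 were without overlap, where 0.133% of all genes were, and 0 of 8 had an unadjusted p under 0.05, where 2.7% of all genes had one. The differences ran from -0.05 for TGFBR1 to +0.13 for TGFB1, with PMEPA1 at -0.01 ± 0.06 and INHBA at +0.09 ± 0.09. In V21 against Mock, 0 of 8 passed by limma with adjustment, where 0.0% of all genes did, 0 of 8 were without overlap, where 0.0199% of all genes were, and 0 of 8 had an unadjusted p under 0.05, where 3.23% of all genes had one. There the differences ran from -0.17 for SMAD7 to +0.23 for SKIL, with PMEPA1 at +0.01 ± 0.06 and INHBA at -0.05 ± 0.09. Without the 4 arrays that stood apart SMAD7 gave -0.09 and SKIL +0.08. These 3 comparisons share their groups, so they are not independent of each other, and a missed threshold does not show equal levels.

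A further 88 genes of the pathway were listed by role, 87 had a named feature and 68 passed the limit on dim genes. The ligands were the list with most dim genes, with 7 of 18 tested. INHA and INHBB, which pair with INHBA to make inhibin A and activin AB, had means of 6.35 and 6.15 over all arrays and were not tested, nor was FST, the activin-binding protein follistatin, at 6.21. The activin receptors ACVR1B, ACVR2A and ACVR2B, picked like SMAD2, SMAD3 and COL1A1 for their role and after their values were seen, were measured at 6.94 ± 0.11, 7.43 ± 0.13 and 8.67 ± 0.18 in V79 8x and at 6.95 ± 0.15, 7.48 ± 0.20 and 8.64 ± 0.27 in V79 (SD, n = 6). Of the SMADs that carry the activin signal, SMAD3 was at 10.39 ± 0.10 in V79 8x and 10.36 ± 0.11 in V79, and SMAD2 at 7.71 ± 0.12 in V79 8x and 7.84 ± 0.52 in V79, a difference of -0.13 ± 0.17. None of these differences passed the limma threshold (adjusted p from 0.98 to 0.994).

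COL1A2 was lower in V79 8x cells than in V21 and Mock cells. It encodes the alpha-2 chain of type I collagen and is a target gene of TGF-beta in fibroblasts. It ran from 8.86 through a median of 9.0 to 9.20 in V79 8x, from 9.26 through 9.32 to 9.49 in V79, from 9.29 through 9.43 to 9.90 in V21 and from 9.07 through 9.46 to 9.61 in Mock. The V79 8x arrays lay under all V79 and V21 arrays and overlapped with Mock, where Mock D was lowest. COL1A2 fell by 0.49 ± 0.10 against V21 (limma adjusted p = 0.0033) and by 0.40 ± 0.10 against Mock (limma adjusted p = 0.0245). Its values were lower in 6 of 6 experiments each time, which against V21 follows from the lack of overlap. Against V79 the difference was -0.33 ± 0.10 and did not pass (limma adjusted p = 0.155). Without the 4 arrays that stood apart it passed in all 3 comparisons, at -0.36, -0.47 and -0.31 against V21, Mock and V79 (limma adjusted p = 0.00286, 5.23e-05 and 0.00882). These arrays were chosen with earlier results of these data known, and all 4 belong to the groups set against V79 8x. The values without them are therefore no separate support. Leaving out a single array ended the call against Mock for 7 of the arrays, with a limma adjusted p of 0.0771 at most when Mock G was dropped. It ended the call against V21 for 0 of them.

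The array has 10 COL1A2 features, all lower in V79 8x. Their differences ran from -0.50 to -0.42 against V21 and from -0.47 to -0.40 against Mock, and 10 of 10 passed in each when every named feature was fitted on its own by limma. Against V79 they ran from -0.36 to -0.28, and 1 of 10 passed. As with INHBA, it is not given whether the features are copies of 1 probe. COL1A1, the other chain of type I collagen, gave +0.07 ± 0.06 against Mock and +0.14 ± 0.06 against V21 (limma adjusted p = 0.895 and 0.233). The interferon-stimulated genes moved with the same groups, as given above, and their part in the COL1A2 difference was not tested.

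COL1A2 was the 1 gene of the 68 to pass in V79 8x against V21 and against Mock, where 2.86% of all genes (2.19% higher and 0.678% lower) and 2.2% (1.71% higher and 0.485% lower) passed. Against V79, 0 of 68 passed by limma and 2 had an unadjusted p under 0.05, where 1.15% of all genes passed (1.02% higher and 0.133% lower). Beside these 2, 7 of 68 had an unadjusted p under 0.05 against Mock and 19 of 68 against V21, where 5.51%, 8.85% and 19.4% of all genes did against V79, Mock and V21. The ligand list had a median of -0.10 against V79, the receptors +0.01, the SMAD transducers -0.04, the inhibitors 0.00, the latency and activation genes +0.01 and the target genes +0.08, beside +0.01 over all genes tested. Of the 21 target genes tested, 14 had a higher value in V79 8x than in V79. They included ACTA2, smooth muscle actin, at +0.33 ± 0.16 (limma adjusted p = 0.871). Its V79 8x arrays from 10.11 to 10.27 lay above the V79 arrays from 9.42 to 10.03. Against Mock ACTA2 gave +0.39 ± 0.16 and against V21 +0.55 ± 0.16 (limma adjusted p = 0.365 and 0.0608). ACTA2 passed against Mock and V21 without Mock D, V21 B, V21 C and V79 B. It then gave +0.31 and +0.29 (limma adjusted p = 0.0134 and 0.0394), and +0.24 against V79 (limma adjusted p = 0.129). As with COL1A2, the values without these arrays are no separate support.

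**Figure D3:**
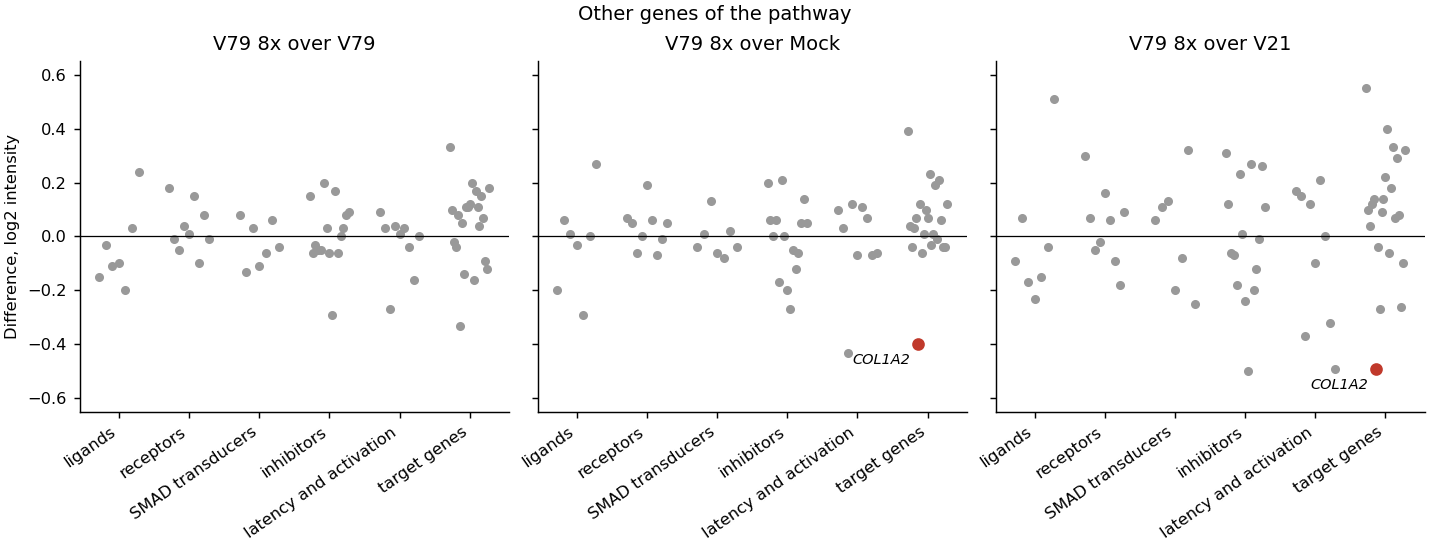
Difference in log2 intensity (vertical axis) of V79 8x over V79, Mock and V21 for the 68 tested genes of the 6 pathway lists, 1 point a gene, with larger red points for genes past the limma adjusted threshold. COL1A2 is the 1 such gene, at -0.40 against Mock and -0.49 against V21, and the V79 panel has none.

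Between the groups without V79 8x, 0 of the 68 pathway genes passed the limma threshold, and 4, 1 and 3 had an unadjusted p under 0.05 in V79 against V21, V79 against Mock and V21 against Mock, where 3.81%, 2.7% and 3.23% of all genes did. The smallest p-values in V79 against V21 belonged to BMPR2, a type II receptor for bone morphogenetic proteins, at -0.27 ± 0.11, and to LTBP2, a relative of the latent TGF-beta binding proteins, at +0.18 ± 0.08 (limma adjusted p = 0.832 for both). In V79 against Mock they belonged to ACVRL1, a type I receptor of endothelial cells, at +0.18 ± 0.07, and HEY1, a transcriptional repressor, at -0.10 ± 0.08 (limma adjusted p = 1.0 for both). In V21 against Mock they belonged to TSC22D1, a leucine zipper protein first found as induced by TGF-beta, at -0.21 ± 0.09, and TAGLN, a protein of the contractile cytoskeleton, at +0.23 ± 0.10 (limma adjusted p = 0.782 for both).

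Several of the 8 genes moved together on the arrays that stood apart. TGFBR2, SMAD6, TGFB1 and INHBA were each lower on all 4 of them (V79 B, V21 B, V21 C and Mock D) than on every array of the same group that did not stand apart, and SMAD7 was so on 3. For TGFBR2 the value was 9.83 on V79 B, 9.75 on V21 B, 9.87 on V21 C and 9.82 on Mock D, which is 0.47 to 0.59 log2 units under the median of the remaining arrays of each group. SKIL went the other way, at 9.33 on V21 B and 9.65 on V21 C, above every remaining V21 array, and its shift on the 4 arrays ran from +0.06 to +0.71. PMEPA1 shifted least, by -0.16 to -0.03. The same count was not made over all genes, so these shifts are not read as a trait of the 8 genes. The histone shift of these arrays is given above, and its part in these values was not tested.

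**Figure D4:**
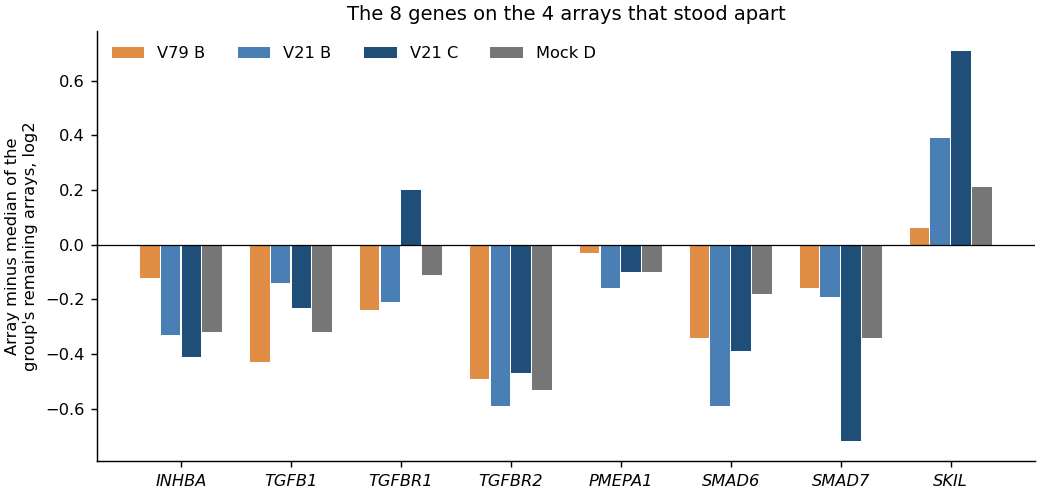
Shift of each of the 8 genes on V79 B, V21 B, V21 C and Mock D, as the array's log2 intensity minus the median of the group's arrays that did not stand apart (vertical axis). TGFBR2 lies between -0.59 and -0.47 on the 4 arrays, PMEPA1 between -0.16 and -0.03 and SKIL between +0.06 and +0.71.

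Within groups, after each group's mean was taken out, the 8 genes did not follow PMEPA1 and INHBA alike. Over 24 arrays, which share the array's RNA and labelling, PMEPA1 had a Pearson r of 0.56 with SMAD6 and -0.63 with SKIL (Spearman 0.59 and -0.69), and 0.41 and -0.56 over the 20 arrays that did not stand apart. INHBA had 0.71 with TGFBR2, which became 0.37 over the 20 arrays, and 0.57 with SMAD7, which became 0.14. Some pairs turned sign, among them INHBA with SKIL, from -0.22 to 0.53, and INHBA with SMAD6, from 0.41 to -0.25. PMEPA1 and INHBA had 0.07 with each other over 24 arrays and -0.45 over 20. SMAD6 and SKIL had -0.69 over 24 and -0.66 over 20. These are descriptions of the same arrays and have no p. The pairs named are a part of all pairs of the 8 genes, and the spread of r over all genes is not given beside them.

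The 5 genes of all 15046 most like PMEPA1 by this measure were SH2D3C, FBXO41, COL1A1, RHBDF2 and RANBP3, with r of 0.81, 0.79, 0.77, 0.76 and 0.75 over 24 arrays and 0.83, 0.78, 0.73, 0.71 and 0.70 over 20. In V79 8x, where PMEPA1 was low, the 5 gave between +0.05 and +0.15 against V79 with 0 past the limma threshold (adjusted p from 0.491 to 0.98). Against V21, FBXO41 and RHBDF2 rose by 0.24 ± 0.06 and 0.29 ± 0.07 (limma adjusted p = 0.0127 and 0.0151). The 5 most like INHBA were RBM41, GAREM1, SDCCAG8, WDR90 and CENPE, with r of 0.94, 0.92, 0.88, 0.88 and 0.87 over 24 arrays and 0.89, 0.87, 0.82, 0.75 and 0.92 over 20. In V79 8x against V79 these gave between -0.23 and +0.05, and 0 of them passed the limma threshold (adjusted p from 0.803 to 0.994).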

How the data were processed

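Per the labels' protocols, 100 ng of total RNA from each transfected SH-SY5Y culture went onto a 1-colour Agilent array after Cy3 labelling. The authors deposited log2 intensities, 1 column for each of 24 arrays. How background was corrected and arrays normalised is stated by no source used here, and sorted values differed by at most 0.01 between arrays. Neither scanner signals nor flags for dim spots entered, so folds of dim genes are uncertain, and the number of arrays limits the precision (median standard error of a difference 0.098).

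Of 62976 features 37051 had 1 gene, 0 had several and 25925 none in the platform annotation, brought up to date through RefSeq accessions (33702 features) or former symbols (644). The brightest feature stood for a gene, and the dimmest 25% of genes were left out. Differences were fitted with limma 3.58.1 (statmod 1.5.0, R 4.3.3) over 4 groups with no covariates and Benjamini-Hochberg adjustment over 15046 genes. The fit was tested on simulated data.

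The 8 genes, the lists and the arrays left out were chosen with earlier results of these data known. The 8 genes carry no test in comparisons with V79 8x. Named pathway genes were, for each list and comparison, the up to 4 called genes that changed most, or, where none was called, the 2 of all lists with the smallest p. The 5 genes most like PMEPA1 and INHBA were added.

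Same-letter arrays deviated together in V79 8x and Mock (r from 0.18 to 0.57 in 6 of 6 pairs). In the other 5 comparisons 1 to 3 of 6 pairs had r over 0.1, so the letters were taken to pair V79 8x with Mock alone. The main fit did not use this pairing. The replicate block is an alternative that puts the letter on all 4 groups, and no fit paired V79 8x with Mock alone. With the replicate block COL1A2 gave -0.40 against Mock (limma adjusted p = 0.0262).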

Additional observations from a re-analysis of the deposited data

Results flagged for a closer look

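In a group of 6 arrays, the lowest or highest was looked at for a gap to its nearest neighbour that is large against the range of the group. This was done for 16 genes in 64 groups, and 4 were picked out, where chance picks about 1 in 20 groups. None was of the 8 genes. ACTA2 was 9.42 on V79 B, against 9.89 to 10.03 on the other V79 arrays, and 9.43 on Mock D, against 9.83 to 10.06 on the other Mock arrays. It was 10.11 on V79 8x F, against 10.23 to 10.27 on the other V79 8x arrays. HEY1 was 11.10 on V21 B, against 11.38 to 11.53 on the other V21 arrays. V79 B, Mock D and V21 B are among the arrays that stood apart by histone genes.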

How the results depend on the processing

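The PMEPA1 difference of V79 8x stayed between -0.54 and -0.37 and the INHBA difference between +0.34 and +0.56 over all 3 comparisons and 34 alternatives, read from the brightest feature or, in 1 alternative, the mean of all features, which gave -0.37 for PMEPA1 against Mock. Single dimmer features went outside these ranges, to -0.28 for PMEPA1 against Mock and +0.58 for INHBA against V21. No call among the 8 genes was made in the other comparisons under any of the 34. There, values near 0 turned sign. With the mean of all features, V79 against V21 gave 0.01 for PMEPA1 and -0.01 for TGFBR2, and V79 against Mock 0.08 and -0.04. With array weights, V79 against Mock gave 0.02 for PMEPA1, 0.08 for SMAD6 and 0.04 for SMAD7, and V21 against Mock 0.05 for SMAD6, -0.02 for SKIL and 0.01 for TGFBR2. Without the 4 arrays that stood apart, V79 against Mock gave 0.01 for SMAD6 and 0.02 for SKIL, and V21 against Mock 0.03 for INHBA and 0.01 for TGFBR2. With 1 array left out, V79 against Mock ran from -0.03 to 0.01 for PMEPA1, -0.05 to 0.05 for SMAD6, -0.06 to 0.03 for SMAD7, -0.08 to 0.04 for SKIL and -0.04 to 0.12 for TGFBR2. V21 against Mock ran from -0.01 to 0.03 for PMEPA1, -0.10 to 0.01 for INHBA and -0.16 to 0.00 for TGFBR2.

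Pathway genes called numbered 0, 1 and 1 in V79 8x against V79, Mock and V21. With array weights they were 1, 5 and 3, without the 4 arrays 1, 3 and 3, and with the 2 groups alone 1 and 2 in the first pair. Against V21 the count was 2 with the dimmest 50% of genes left out, with the mean of all features, with the intensity trend and with the replicate block, and 3 with the random replicate block. With 1 array left out the counts ran from 0 to 1, 0 to 1 and 1 to 5. TSC22D1 was the added gene with the replicate block (+0.32, limma adjusted p = 0.0145), and that block changed no other call among these genes. Same-letter arrays were not shown to be paired in this comparison. With the random block ACTA2 was added too (+0.55, limma adjusted p = 0.048).

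Over all genes, calls numbered 173, 331 and 431 in V79 8x against V79, Mock and V21. They were 461 and 1047 against V79 and Mock with array weights, 274 and 597 without the 4 arrays, 317, 550 and 672 features when each feature was fitted on its own, and 243 against V21 with 2 groups alone. Leaving out 1 array gave 319 to 728 against V21 (728 without V21 E). V79 against V21 had 1 call, 0 with the 50% limit, with 2 groups alone and without the 4 arrays, 2 with the random block and by feature, and 1 to 2 with 1 array left out. V79 against Mock had 1, with 0 at the 50% limit and with 2 groups alone, 3 with array weights and 2 by feature. The cause of these shifts was not tested.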
